A study of Mus musculus with 48 samples.

Results

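The 6 mouse genes Ly6a, Rnf125, Enpp2, As3mt, Ifitm1 and Gm14322 differed between cells given vitamin C (Vc) alone and untreated cells and were followed through every group of the study. These 6 genes, of 13682 in the table of expression values, were chosen by their measured values, as among the largest differences between Vc and control at 24 h or 48 h, so that this contrast is described below and not tested. The question that the other groups answer is whether these genes also differed when Vc was added to a second compound, and how they behaved later in the induction and in the gonad.

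The study turned female C57BL/6 embryonic stem cells (ESCs), kept on inactivated mouse embryonic fibroblast feeders that were depleted by adherence before induction, into cells resembling gonadal somatic cells. Bulk RNA-seq covered untreated cells (Con), cells with Vc, cells with AM580 and cells with both (V580), each at 24 h and 48 h with 2 libraries per group. It further covered V580 cells on day 4, 6, 8 and 10 and cells separated from E12.5 female gonads (E12.5_GC), with 3 libraries each, and a separate count table held gonadal somatic cells of female gonads (E12.5, E13.5, E16.5) and ovary somatic cells of 6-week-old mice (P6w), with 2 libraries each. One 10x single-cell sample came from V580 cells of day 6. The labels give C57BL/6 for all samples, and nothing in the labels says that replicates were separate cultures or animals, so that p values measure only the spread between these libraries, which may be technical. For the E12.5 and the E13.5 libraries, the labels carry the same sample name with different indices.

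Vc is an antioxidant and keeps the iron of a large group of dioxygenases in the reduced form that they need, among them the TET enzymes that oxidise methylated DNA, histone demethylases and the prolyl hydroxylases that mark hypoxia-inducible factors for degradation. AM580 is a synthetic agonist of the retinoic acid receptor alpha. The 6 genes have no common pathway. Ly6a encodes Sca-1, a lipid-anchored surface protein used to isolate blood and mesenchymal progenitors, and Rnf125 encodes a ubiquitin ligase that acts on the viral RNA sensor RIG-I. As3mt encodes the methyltransferase that methylates arsenic with S-adenosylmethionine. Enpp2 encodes autotaxin, the secreted enzyme that makes lysophosphatidic acid, and Ifitm1 encodes an interferon-inducible membrane protein that is also found on early germ cells. Gm14322 is a predicted protein-coding gene within a cluster of zinc finger genes.

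RefSeq promoter sequence was at hand for As3mt, Ifitm1 and Gm14322, 3 of the 6 genes. The 250 bases before the start of As3mt (GRCm38.p6, plus strand, chr19:46707208-46707457) are shown, since As3mt, alone among the 3, was higher in every library with Vc than in those of the same time without it, both with and without AM580. Capitals mark its 4 CpG dinucleotides, the targets of DNA methylation.
As3mt: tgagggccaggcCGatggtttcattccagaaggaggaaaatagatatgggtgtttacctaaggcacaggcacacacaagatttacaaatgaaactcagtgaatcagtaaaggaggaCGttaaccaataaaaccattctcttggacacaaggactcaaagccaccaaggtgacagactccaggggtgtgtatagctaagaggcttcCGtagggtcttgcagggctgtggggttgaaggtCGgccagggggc
The RefSeq window of Ifitm1 (chr7:140967826-140968075) lies within the gene as given below, since RefSeq starts it further downstream than GENCODE, while those of As3mt and Gm14322 end at the GENCODE start. The windows of Ifitm1 and Gm14322 held 4 and 1 CpG, against a median of 6 over the 32841 RefSeq windows of that length. Both strands were searched for a pair of GAAA letters 2 bases apart (interferon response element), TTCNNNGAA (STAT site), ACGTG or GCGTG (core site of hypoxia-inducible factors) and AGGTCA repeated after 5 bases (retinoic acid receptor), and the 3 windows held 0 matches. Over all windows, these letters were found in 2.98%, 7.02%, 38.6% and 0.00913%, in that order.

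On GRCm38 (mm10), Ly6a lies on chromosome 15 from 74994877 to 74998031 and Enpp2 on the same chromosome from 54838901 to 54952892, both on the minus strand. On the plus strand, Rnf125 lies on chromosome 18 from 20944625 to 20983862, As3mt on chromosome 19 from 46707458 to 46741099, Ifitm1 on chromosome 7 from 140967221 to 140969825 and Gm14322 on chromosome 2 from 177759288 to 177770472. Of the 75-base stretches of their transcripts, 79.3% of those of Gm14322 also occur in transcripts of other genes, all of them also in Gm14418, so that its values are uncertain. The share was 6.3% for Ly6a, 5.6% for Rnf125, 0.6% for Ifitm1 and 0.0% for Enpp2 and As3mt.

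The expression values are FPKM, fragments scaled for gene length and library size, whose low values gave back whole fragments for 96.3% to 96.8% of the values checked, within 0.05 of a fragment, at about 16400000 to 28300000 fragments per library. Among the 6 genes, those of Rnf125 and As3mt mostly did not come back whole, as with 59.08 and 544.81 in the first Con library of 24 h. The fragment numbers of these 2 genes, and any test on them, are therefore approximate. In the 16 libraries of 24 h and 48 h the 12 pluripotency markers summed to 2625.3 to 5069.7 FPKM and Foxl2, a defining granulosa gene, stayed at or below 0.422 FPKM. On V580 day 4 to 10 Foxl2 reached 1.32 to 5.65 FPKM, against 15.7 to 27.6 FPKM in E12.5_GC. The counts of the stages summed to 12694769 to 22259044 per library. The Y-linked gene Ddx3y reached 97 and 103 counts at E12.5, where the gonads are labelled female, against 0 to 4 in the other stages, and comparisons with E12.5 cannot be made without those libraries. In bulk samples, fewer cells of a type and less RNA per cell cannot be told apart.

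Ly6a had the largest difference between Vc and Con at 24 h among the 6 genes. It stood at 4.43 and 4.74 FPKM in Con, 20.8 and 22.6 in Vc, 4.76 and 4.59 in AM580, and 17 and 18.4 in V580. Both groups with Vc lay above both groups without it. At 48 h all 8 libraries were between 0.0415 and 0.385 FPKM, which is 1 to 10 fragments each, so that no difference between treatments was detectable at this depth.

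Rnf125 was likewise higher in both groups with Vc at 24 h. Its FPKM was 1.79 and 2.32 in Con, 5.84 and 7.02 in Vc, 1.14 and 1.38 in AM580, and 6.5 and 6.61 in V580. At 48 h it was 0.754 and 0.961 in Con, 2.05 and 1.6 in Vc, 0.305 and 0.356 in AM580, and 0.562 and 0.78 in V580. The groups with Vc thus lay above their counterparts without Vc at both times. At 48 h this rested on about 10 to 74 fragments per library, numbers that are approximate for this gene.

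As3mt was higher with Vc in every pair of groups. At 24 h it stood at 8.63 and 8.83 FPKM in Con, 11.7 and 11.4 in Vc, 9.92 and 9.35 in AM580, and 14.1 and 13.4 in V580. At 48 h it was 3.1 and 3.39 in Con, 8.2 and 8.21 in Vc, 5.61 and 5.15 in AM580, and 8.82 and 9.16 in V580. With 2 libraries per group, each pair of groups was free of overlap at both times, as it also was for Rnf125, Enpp2 and Ifitm1. How many of all genes were so was not counted, so that nothing particular to As3mt can be read from it. The Vc and Con libraries also chose the genes.

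Enpp2 and Ifitm1 were lower with Vc. Enpp2 was at 6.76 and 7.46 FPKM in Con, 3 and 2.83 in Vc, 1.11 and 1.27 in AM580, and 0.485 and 0.318 in V580 at 24 h. At 48 h it was at 13.6 and 14.1 in Con, 7.52 and 5.97 in Vc, 0.123 and 0.119 in AM580, and 0.0779 and 0.0852 in V580, the latter 2 groups with 9 to 14 fragments per library. Enpp2 was therefore already low with AM580 alone and lowest with both compounds.

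Ifitm1 at 24 h was at 20.1 and 19.9 FPKM in Con, 15.9 and 12.2 in Vc, 14.8 and 17.3 in AM580, and 9.94 and 11 in V580. At 48 h it was at 28.2 and 25.5 in Con, 11.1 and 9.83 in Vc, 7.45 and 7.14 in AM580, and 1.87 and 2.25 in V580. At 48 h Con was highest and V580 lowest, with Vc and AM580 between them, whereas Vc and AM580 overlapped at 24 h.

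Gm14322 was at 2.35 and 1.74 FPKM in Con, 3.61 and 6.98 in Vc, 3.44 and 4.23 in AM580, and 3.91 and 2.32 in V580 at 24 h. At 48 h its libraries lay between 1.81 and 5.46 FPKM, with Con and Vc overlapping. The libraries of Vc at 24 h lay further apart than those of any other group of this gene.

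**Figure D1:**
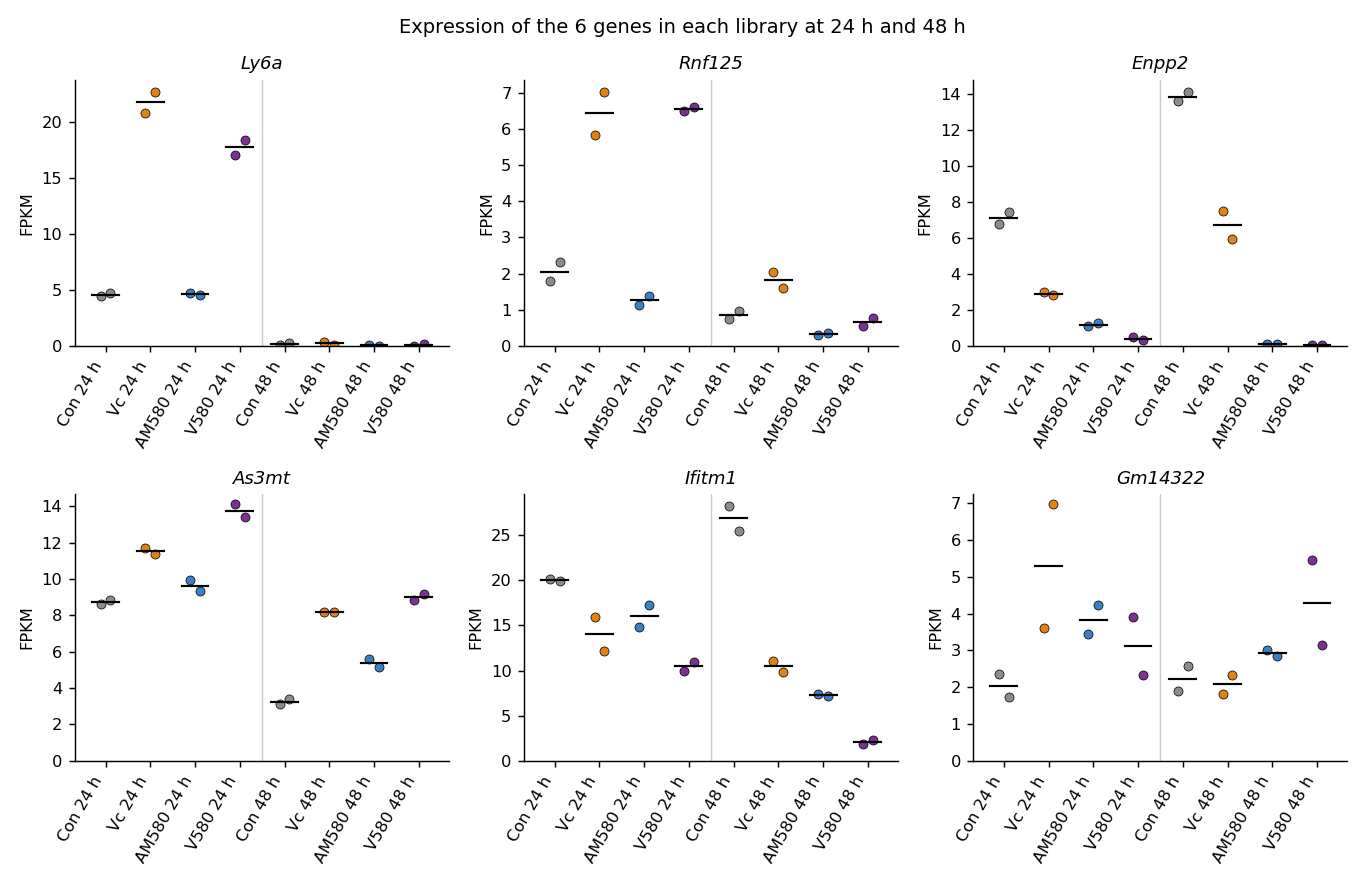
FPKM of the 6 genes (vertical axes, each from 0) in the Con, Vc, AM580 and V580 libraries at 24 h and 48 h (horizontal axes), where each point is 1 library and each bar the mean of 2. Ly6a and Rnf125 stand high in Vc and V580 at 24 h, Ifitm1 at 48 h steps down from 28.2 and 25.5 in Con to 1.87 and 2.25 in V580, and the points of Gm14322 are scattered.

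On the log2(FPKM + 1) scale, which understates the changes of low genes, the difference between Vc and Con at 24 h was 2.02 for Ly6a, 1.28 for Rnf125, -1.05 for Enpp2 and 1.00 for Gm14322, and at 48 h it was -1.28 for Ifitm1 and 1.12 for As3mt. These values chose the genes. Ranked by size among 10644 genes with at least 1 FPKM in at least 2 libraries, the first 4 were at place 2, 4, 8 and 10 at 24 h and the last 2 at place 2 and 3 at 48 h. Of the 10644 genes, 0.0939% differed at least 2-fold at 24 h and 0.0564% at 48 h, and 4 and 2 of the 6 genes did so. Without the second Con library of 24 h, Enpp2 and Gm14322 were below 2-fold and 2 genes were left. Just inside the 2-fold line at 24 h was Gm14322 at 1.00, and among the genes outside it were Prph at -0.94 and Rdm1 at 0.92. At 48 h the genes ranked after As3mt were Ddit4 at -1.05, Bnip3 at -1.02 and P4ha1 at -1.02. Hypoxia-inducible factors are known to raise all 3, and whether these factors had a part here was not tested. Gapdh, the glycolytic enzyme, ranked above all at both times with -3.61 and -2.68. It has many pseudogene copies, and whether these affect its values was not tested. Its Vc values were 3.21 and 4.84 FPKM at 24 h but 49.4 and 3.56 at 48 h, where the 2 libraries disagree. The paper used Gapdh as the internal control of its qPCR, and whether these values bear on that assay was not tested. For cells with Vc the paper also showed western blots, with β-actin as the loading control, and immunostaining.

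In the other groups at 24 h, with the Con libraries shared, AM580 minus Con was 0.02 for Ly6a, -0.43 for Rnf125, -1.89 for Enpp2, 0.13 for As3mt, -0.31 for Ifitm1 and 0.67 for Gm14322, and V580 minus Con was 1.74, 1.31, -2.53, 0.60, -0.87 and 0.41 in that order. At 48 h, AM580 minus Con was -0.15, -0.48, -3.73, 0.59, -1.75 and 0.29, and V580 minus Con was -0.06, -0.15, -3.78, 1.23, -3.19 and 0.69. Enpp2 and Ifitm1 thus had lower values with either compound than in Con. For Ly6a and Rnf125 the value with AM580 was near or below that of Con.

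Adding Vc to AM580 is a contrast that shares no library with the choice of the genes, and it was tested with limma over the same 10644 genes. At 24 h Ly6a rose 3.79-fold by the ratio of mean FPKM, with a log2(FPKM + 1) difference of 1.72 (SE 0.10, BH adjusted p = 6.53e-08, 2 libraries per group). Rnf125 rose 5.19-fold (1.74, SE 0.11, adjusted p = 1.10e-07). These 2 of the 6 genes were called at an adjusted p below 0.05 and at least 2-fold, where 0.0658% of all genes tested were called. As3mt passed the adjusted p but not the fold, with 0.47 (SE 0.06, adjusted p = 5.21e-05), as did Enpp2 with -0.65 (SE 0.09, adjusted p = 1.84e-04) and Ifitm1 with -0.57 (SE 0.10, adjusted p = 0.00166). By the adjusted p alone, 5 of the 6 genes passed, against 14.9% of all genes tested. Gm14322 did not pass, with -0.26 (SE 0.29, adjusted p = 0.631), and was at 0.03 without the second V580 library.

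At 48 h, Ifitm1 fell by 1.44 on the log2 scale between AM580 and V580 (SE 0.10, adjusted p = 1.72e-07), a level 3.54-fold lower by mean FPKM. It was the 1 gene of the 6 called at that time, when 0.263% of all genes tested were called. As3mt passed the adjusted p alone with 0.65 (SE 0.06, adjusted p = 1.21e-06) and Rnf125 with 0.33 (SE 0.11, adjusted p = 0.0467), where 19.3% of all genes passed. The values of Ly6a (0.09, SE 0.10), Enpp2 (-0.05, SE 0.09) and Gm14322 (0.40, SE 0.29) did not pass, the first 2 at 1 to 14 fragments per library. With edgeR on the recovered fragments, Enpp2 was also called at 24 h with -1.58 (adjusted p = 3.73e-06), and Rnf125, whose fragments are approximate, did not pass at 48 h (1.04, adjusted p = 0.0579). Rnf125 at 48 h also did not pass without the filter on low values (adjusted p = 0.0671), with median centring (adjusted p = 0.0538) or without any 1 of the 4 libraries (adjusted p 0.0551 to 0.29), whereas it passed with a pseudocount of 0.1 (0.83, adjusted p = 0.00429) and with the replicate block (0.33, adjusted p = 0.0328).

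**Figure D2:**
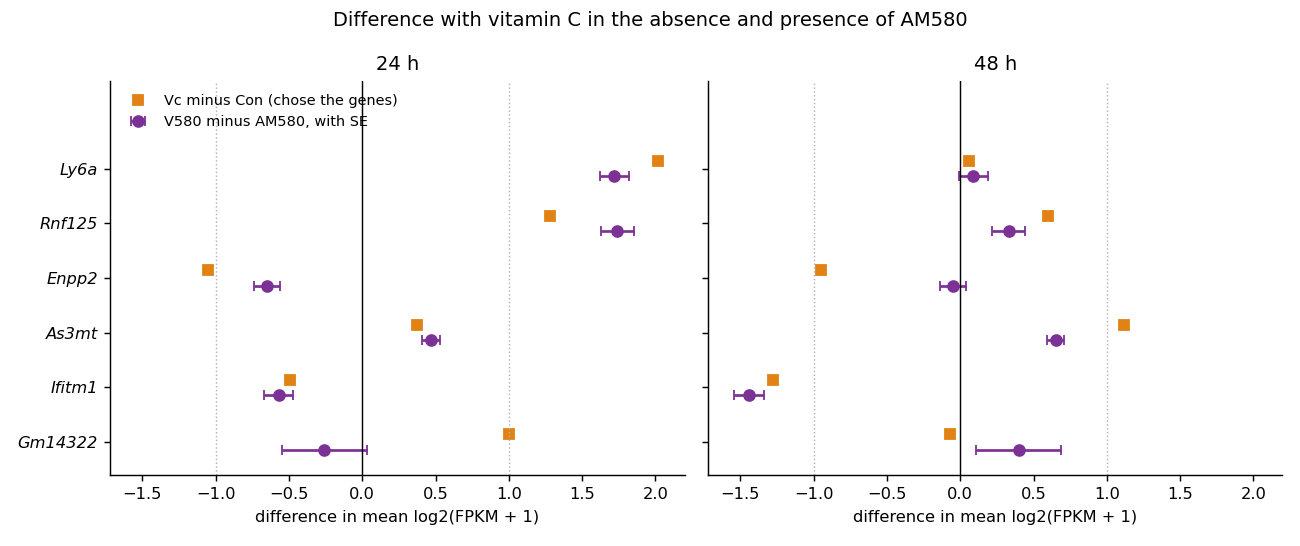
Difference in mean log2(FPKM + 1) with Vc (horizontal axis) for each of the 6 genes (vertical axis) at 24 h and 48 h, where squares are Vc minus Con, the contrast that chose the genes, circles are V580 minus AM580 with the standard error of limma, and dotted lines mark 2-fold. At 24 h Ly6a is at 2.02 and 1.72 and Rnf125 at 1.28 and 1.74, whereas Gm14322 is at 1.00 and -0.26, the latter at 0.03 without the second V580 library.

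The difference between V580 and AM580 was itself compared between times with an interaction contrast in limma, chosen after seeing the data. At an adjusted p below 0.05, 6.02% of all genes tested passed. Ifitm1 differed by -0.87 between 48 h and 24 h (SE 0.15, adjusted p = 0.00207), and it also passed with a pseudocount of 0.1 and with edgeR on the recovered fragments (adjusted p = 6.26e-04 and 0.0013). Ly6a (-1.63, adjusted p = 8.67e-06), Rnf125 (-1.42, adjusted p = 5.81e-05) and Enpp2 (0.59, adjusted p = 0.00981) passed on the log2(FPKM + 1) scale but not with edgeR, where their adjusted p was 0.743, 0.0887 and 0.329. With a pseudocount of 0.1, Rnf125 (-1.47, adjusted p = 0.0026) and Enpp2 (1.10, adjusted p = 0.00647) passed and Ly6a did not (-1.50, adjusted p = 0.163). As3mt did not pass (0.17, SE 0.08, adjusted p = 0.23).

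Between 24 h and 48 h, Ly6a fell in both AM580 groups. It fell by 2.42 on the log2 scale in AM580 (SE 0.10, adjusted p = 1.54e-11) and fell by 4.05 in V580 (SE 0.10, adjusted p = 4.95e-14). In Con, with no test, it went from 4.43 and 4.74 to 0.125 and 0.237 FPKM. The summed FPKM of 20 fibroblast and feeder markers went the same way, from 599.1 to 771.2 over the libraries of 24 h to 221.8 to 287.3 at 48 h, with none of the 20 genes at 0 in a group, and that of 12 endothelial and blood markers in Con and AM580 from 58 to 63.4 down to 15.3 to 16.2, with up to 2 of these at 0. Other sums also fell in Con. Pluripotency markers went from 4690.7 to 5069.7 down to 2975.1 to 3099.1 FPKM, and 9 germline genes from 85.4 to 86.7 down to 37.5 to 39.8. The sum of the zinc finger genes of the chromosome 2 cluster rose in Con, from 48.4 to 50.8 up to 60.9 to 61. The part of any of these genes in the fall of Ly6a was not tested. Within 24 h the fibroblast sum was 700.2 to 770.7 in Vc against 754.7 to 771.2 in Con. In V580 it was 599.1 to 624.2 against 658.5 to 708.6 in AM580. The endothelial and blood sum was 44.5 to 49 in Vc against 58 to 59.9 in Con, and 55.8 to 58.2 in V580 against 62.5 to 63.4 in AM580. The germline sum was higher with Vc, at 108.7 to 109.5 against 85.4 to 86.7 in Con. The part of any of these in the difference of Ly6a with Vc was not tested.

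Of the other genes, Ifitm1 fell by 1.04 in AM580 (SE 0.10, adjusted p = 3.36e-07) and fell by 1.91 in V580 (SE 0.10, adjusted p = 2.32e-10), and Rnf125 fell by 2.18 in V580 (SE 0.11, adjusted p = 8.53e-11). In AM580 2 of the 6 genes were called, against 7.37% of all genes, and without the second AM580 library of 24 h Ifitm1 was at -0.93 and below 2-fold. In V580 3 were called, against 8.01%. As3mt was lower at 48 h without reaching 2-fold, by -0.74 in AM580 (SE 0.06, adjusted p = 1.46e-08) and -0.56 in V580 (SE 0.06, adjusted p = 3.04e-07). Enpp2 had -0.96 in AM580 (SE 0.09, adjusted p = 1.35e-07), just under 2-fold on this scale, while its mean went from 1.19 to 0.121 FPKM. It was called with a pseudocount of 0.1 (-2.54, adjusted p = 9.38e-10), with edgeR on the recovered fragments (-3.26, adjusted p = 9.10e-11) and without the first AM580 library of 24 h (-1.02, adjusted p = 2.36e-06). In Con, with no test, Enpp2 stood higher at 48 h than at 24 h.

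The families and pathways of the 6 genes were then read in the contrast of V580 and AM580, beside a median of -0.01 and 0.00 over all genes tested at 24 h and 48 h. At these times 0.0658% and 0.263% of all genes tested were called, and 14.9% and 19.3% passed the adjusted p. A list with 0 called genes is therefore near the share over all genes. Of the Ly6 and uPAR family, 4 genes besides Ly6a were tested and 0 were called at either time, while Ly6e (-0.28, adjusted p = 0.00261), Cd59a (-0.48, adjusted p = 0.0224) and Plaur (-0.20, adjusted p = 0.0242) passed the adjusted p at 48 h. Their median was 0.06 at 24 h and -0.24 at 48 h. Of the Ifitm family, Ifitm2 and Ifitm3 were tested and not called. Ifitm3, a close relative of Ifitm1, had -0.42 at 48 h (adjusted p = 3.16e-04), and Ifitm2 had -0.09 (adjusted p = 0.478).

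Of 42 interferon-stimulated genes, 41 were measured and 17 tested, and 0 were called at 24 h or 48 h, against 0.0658% and 0.263% of all genes tested. The adjusted p alone was passed by 14.9% and 19.3% of all genes. By the adjusted p alone 1 was higher and 1 lower at 24 h, and 1 was higher and 6 were lower at 48 h, among them Oasl2 (-0.92, adjusted p = 1.07e-07), which activates antiviral signalling, and the transcription factor Irf1 (-0.54, adjusted p = 4.47e-04). Their median was -0.01 and 0.03. Of 12 tested genes of the RIG-I pathway and Rnf125 relatives, 0 were called, and Rnf138, a ubiquitin ligase related to Rnf125, was at 0.40 at 24 h (adjusted p = 2.15e-04), with medians of 0.03 and 0.04.

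In the lysophosphatidic acid pathway, 12 genes besides Enpp2 were tested. Lpar4, a receptor for this lipid, fell by 1.00 at 48 h (SE 0.09, adjusted p = 1.70e-06) and was the only one called at either time, while the receptor Lpar2 was at 0.46 at 24 h (adjusted p = 2.15e-04) and Lpar1 at -0.39 at 48 h (adjusted p = 0.00499). The medians were 0.05 and -0.14. Of 16 tested genes of S-adenosylmethionine metabolism and arsenic handling besides As3mt, 0 were called, with medians of -0.08 and 0.05, and Gsto1, a glutathione transferase that can reduce arsenic species, was at 0.23 and 0.30 (adjusted p = 0.00213 and 1.78e-04). Of the 9 tested zinc finger genes of the chromosome 2 cluster besides Gm14322, 0 were called, with medians of -0.08 and 0.01.

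Of 25 germline genes known to be silenced by promoter methylation, 8 were tested and 0 were called, with medians of 0.22 and 0.27. Dazl, an RNA-binding protein of germ cells, was at 0.71 and 0.61 (adjusted p = 9.17e-06 and 1.48e-05), and Fkbp6, needed for meiosis and for silencing transposons, at 0.39 and 0.91 (adjusted p = 0.00397 and 1.48e-06). By the adjusted p alone 4 were higher and 0 lower at 24 h, and 4 were higher and 1 was lower at 48 h, against 14.9% and 19.3% of all genes tested. Among cell type markers, 0 of the 16 fibroblast and feeder, 12 pluripotency, 10 extraembryonic endoderm and 5 endothelial and blood genes tested were called at either time. All 10 extraembryonic endoderm genes were lower by the adjusted p at 48 h (median -0.50), when 19.3% of all genes tested passed. Of 6 mesothelial genes, 3 were called lower, Podxl (-1.27), Krt8 (-1.22) and Krt19 (-1.21). By the adjusted p alone, Lrrn4 (-0.87) and Msln (-0.42) were lower and Wt1 was higher (0.19, limma adjusted p = 0.0406), so that the list did not move as one.

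The genes on either side of the 6 genes, the nearest 2 on each side in the annotation that the table holds, were read in the same contrast, a reading chosen after values were seen. Of 24 such neighbours 20 were tested, and 1 was called at 24 h and at 48 h, against 0.0658% and 0.263% of all genes tested. This was Mep1b, which encodes a subunit of the metalloprotease meprin and lies 78.1 kb from Rnf125. Its FPKM at 24 h was 0.356 and 0.233 in Con, 2.71 and 3.06 in Vc, 0.507 and 0.709 in AM580, and 4.43 and 4.29 in V580. At 48 h it was 0.11 and 0.0831 in Con, 0.365 and 0.428 in Vc, 0.334 and 0.346 in AM580, and 2.73 and 2.66 in V580. Mep1b rose by 1.74 at 24 h (SE 0.08, adjusted p = 2.69e-09) and 1.46 at 48 h (SE 0.08, adjusted p = 6.48e-09).

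The other neighbours of Rnf125 were not called. B4galt6, an enzyme of glycosphingolipid synthesis 198.2 kb away, had 11.1 and 11.4 FPKM in AM580 and 20.4 and 20.7 in V580 at 24 h (0.81, adjusted p = 8.46e-06) and 0.05 at 48 h (adjusted p = 0.678). Rnf138, 17.5 kb away, is given above, and Trappc8, 48.5 kb away, had 0.11 (adjusted p = 0.209). Ly6c1, next to Ly6a, was at 0.32 at 24 h (adjusted p = 0.0777) and shares 5.9% of the stretches of Ly6a. Borcs7, 4.1 kb before As3mt, was at 0.03 and 0.21 (adjusted p = 0.882 and 0.129).

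During V580 induction from day 4 to day 10, Enpp2 and Ifitm1 came up. Enpp2 was at 0.106, 0.0909 and 0.0722 FPKM on day 4, 1.65, 1.53 and 1.52 on day 6, 4.45, 3.9 and 4.45 on day 8, and 2.7, 2.79 and 2.85 on day 10. It rose by 1.23 from day 4 to day 6 (SE 0.06, limma adjusted p = 9.78e-10) and by 1.04 to day 8 (SE 0.06, adjusted p = 1.58e-08), and had -0.48 from day 8 to day 10 (SE 0.06, adjusted p = 4.73e-05), which is under 2-fold. Ifitm1 was at 3.09, 3.32 and 2.33 on day 4, 4.49, 4.69 and 3.98 on day 6, 25.1, 23.2 and 20.2 on day 8, and 14.1, 16.6 and 18.7 on day 10. It rose by 2.14 from day 6 to day 8 (SE 0.15, adjusted p = 9.34e-08).

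Of the 11512 genes tested in these 15 libraries, 5.08% were called from day 4 to day 6, 2.55% to day 8 and 1.29% to day 10, against 1, 2 and 0 of the 6 genes. Only 4 of the 6 genes were tested, as Ly6a and Rnf125 did not reach 1 FPKM in 3 libraries. Ly6a was between 0.0335 and 0.277 FPKM on day 4 and day 6 and at 1.25, 1.01 and 0.651 on day 8, with 22 to 37 fragments. Rnf125 lay at or below 0.395 FPKM on every day. The summed level of the 20 fibroblast and feeder markers was 364.0 to 405.2 FPKM on day 4, 473.6 to 483.3 on day 6, 1125.3 to 1410.1 on day 8 and 2401.1 to 2932.5 on day 10, and its part in these changes was not tested. As3mt was at 8.27 to 8.49 FPKM on day 4 and 4.81 to 5.65 on day 6 (-0.59, SE 0.14, adjusted p = 0.00272), without reaching 2-fold.

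**Figure D3:**
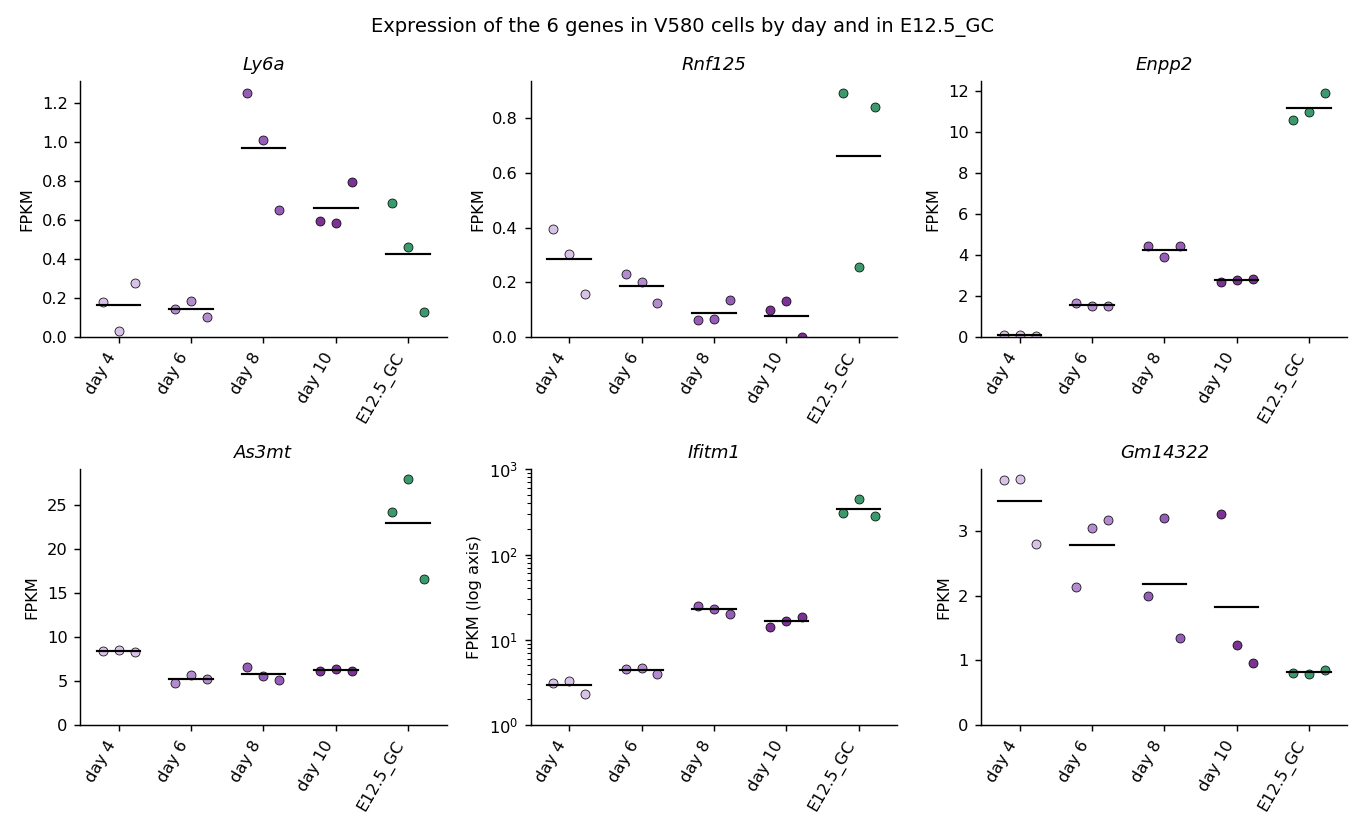
FPKM of the 6 genes (vertical axes from 0, for Ifitm1 a log axis) in V580 cells on day 4, 6, 8 and 10 and in E12.5_GC (horizontal axes), where each point is 1 of 3 libraries and each bar their mean. Enpp2 climbs to 3.9 to 4.45 on day 8 and stays below the 10.6 to 11.9 of E12.5_GC, and Ifitm1 on day 8 stays below the 282.9 to 444.5 of E12.5_GC.

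Against E12.5_GC, the induced cells of day 6 were lower in 3 of the 6 genes. Ifitm1 had 309.2, 444.5 and 282.9 FPKM in E12.5_GC and V580 cells differed from it by -5.98 on the log2 scale on day 6 (SE 0.15, adjusted p = 1.52e-13) and -4.29 on day 10 (SE 0.15, adjusted p = 3.87e-12). Enpp2 stood at 10.6, 11 and 11.9 in E12.5_GC, with differences of -2.25 and -1.69 (SE 0.06 each, adjusted p = 2.65e-13 and 4.76e-12). As3mt stood at 24.2, 27.9 and 16.6, with -1.91 and -1.70 (SE 0.14 each, adjusted p = 1.13e-08 and 4.05e-08). Gm14322 was at 0.804, 0.782 and 0.855 in E12.5_GC and 2.13, 3.05 and 3.17 on day 6, a difference of 1.05 (SE 0.25, adjusted p = 0.00178) that was at 1.00 and under 2-fold without the second day 6 library and at 0.97 without the third. Ly6a and Rnf125 were not tested here. Of the 4 genes tested, 4 were called on day 6, against 15.2% of all genes tested, and 3 on day 10, against 16.4%. The 12 endothelial and blood markers summed to 1131.8 to 4546.0 FPKM in E12.5_GC, against 11.9 to 69 in V580 cells of day 4 to 10, and their part in these differences was not tested.

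In gonadal somatic cells by stage, measured as CPM, counts scaled to a fixed library total, Ifitm1 and Enpp2 were high in the fetal gonad and low in the adult ovary. Ifitm1 stood at 834.6 and 733.9 CPM (E12.5), 1190.3 and 1163.3 (E13.5) and 281.0 and 326.3 (E16.5). At P6w it had a mean of 13.1 CPM (SD 0.575, n = 2), from 163 and 172 counts. It fell by 2.21 on the log2 scale from E13.5 to E16.5 (SE 0.13, edgeR adjusted p = 8.18e-09) and fell by 4.37 to P6w (SE 0.15, adjusted p = 1.58e-12). Enpp2 stood at 39 and 46.1 CPM (E12.5), 58.2 and 62.1 (E13.5), 179.2 and 120.8 (E16.5) and 3.44 and 3.62 (P6w). It rose by 0.83 to E13.5 (SE 0.16, adjusted p = 4.53e-04) and by 1.05 to E16.5 (SE 0.15, adjusted p = 3.25e-05), then fell by 5.24 (SE 0.20, adjusted p = 5.01e-12).

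Rnf125 dipped at E13.5, with 6.61 and 5.54 CPM (E12.5), 1.26 and 0.759 (E13.5), 10.4 and 8.9 (E16.5) and 3.28 and 4.1 (P6w). It fell by 2.24 to E13.5 (SE 0.32, adjusted p = 4.99e-05), rose by 2.98 to E16.5 (SE 0.32, adjusted p = 1.72e-06) and fell by 1.23 to P6w (SE 0.29, adjusted p = 0.00186), at 15 to 220 counts per library. As3mt lay between 44.6 and 65.9 CPM throughout, and its differences of 0.49, -0.59 and 0.59 between successive stages and 0.50 between E12.5 and P6w were called and under 2-fold. Those with E12.5 were lost without the first E12.5 library (0.46 each, adjusted p = 0.0752 and 0.0628), and that with E13.5 also without the second E13.5 library (0.42, adjusted p = 0.0761). Ly6a lay between 1.37 and 4.65 CPM and rose by 1.50 from E16.5 to P6w (SE 0.39, adjusted p = 0.00413), a call lost without the second P6w library (1.16, adjusted p = 0.0693). Gm14322 had at most 17 counts and did not pass the filter.

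Of the 16398 genes tested, 46% were called between E12.5 and E13.5, 54.1% between E13.5 and E16.5, 56.2% between E16.5 and P6w and 52.9% between E12.5 and P6w. The 4, 4, 5 and 3 of the 6 genes called there, with Gm14322 not tested, thus stand beside a high background. The labels place E12.5, E13.5 and the first E16.5 library on the same sequencing lane and the second E16.5 library with P6w on another. Stage and lane therefore cannot be told apart in the comparison of P6w with E12.5. A comparison of E16.5 with E13.5 or P6w kept to 1 lane has 1 E16.5 library left, so that no calls are counted for it. From E12.5 to E13.5 the log2 difference ran with gene length across genes (Spearman's rho -0.494), as it did from E13.5 to E16.5 (rho 0.335). With a gene length term in the first comparison, Ifitm1 (0.91, SE 0.13) went to 0.16 (adjusted p = 0.285) and As3mt (0.49, SE 0.14) to 0.31 (adjusted p = 0.0742), and neither was called, whereas Rnf125 was called at -2.82 and Enpp2 at 1.04. From E13.5 to E16.5, 4 of the 6 genes were called with the same term, where 54.1% of all genes tested were called without the term. The share over all genes with the term is not given here, so that these counts say little about the 6 genes.

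**Figure D4:**
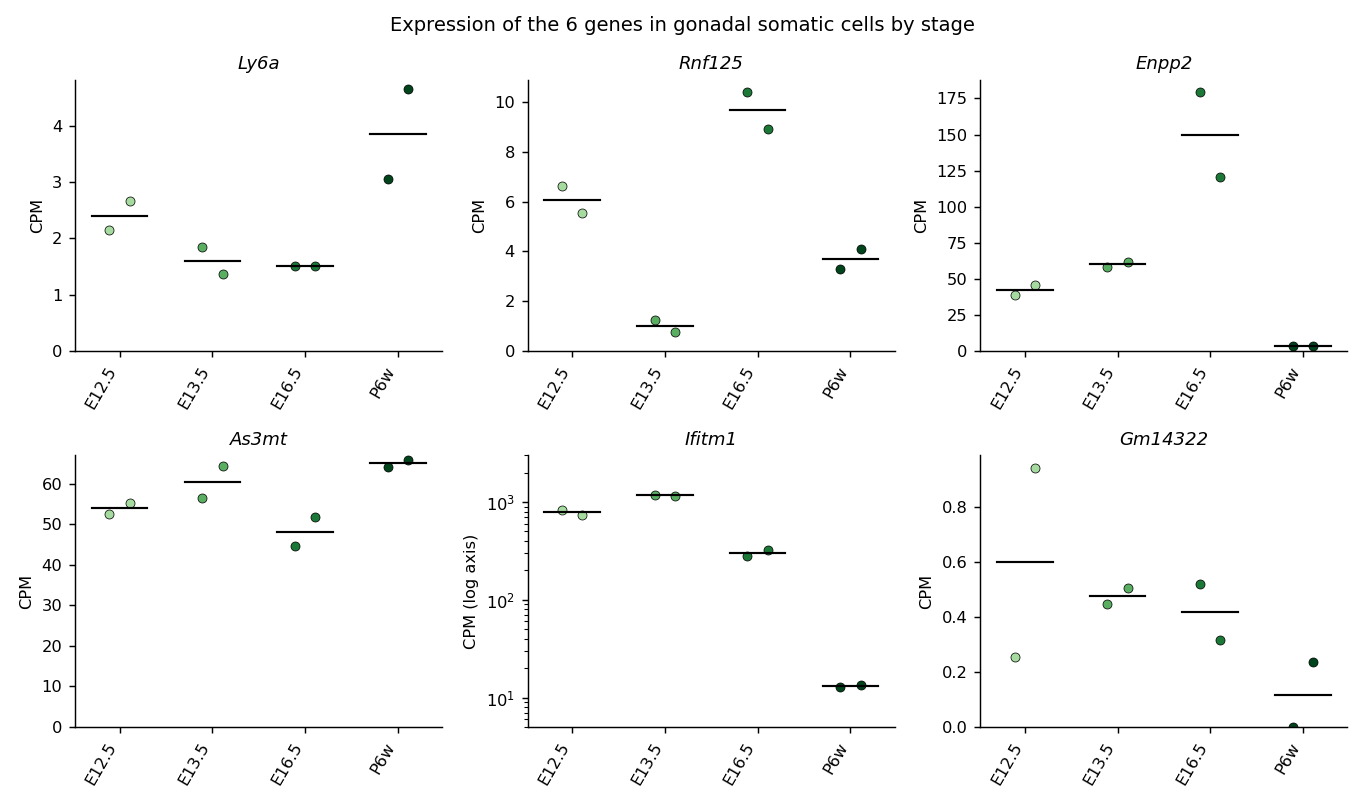
CPM of the 6 genes (vertical axes from 0, for Ifitm1 a log axis) in gonadal somatic cells at the 4 stages (horizontal axes), where each point is 1 of 2 libraries and each bar their mean. Ifitm1 drops from 1190.3 and 1163.3 at E13.5 to a mean of 13.1 at P6w, Rnf125 is lowest at E13.5, and As3mt stays within 44.6 to 65.9.

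Across the 13 groups of the FPKM table, Pearson's r of group means of log2(FPKM + 1) was highest for Ly6a with Catip (0.982) and Prdm16 (0.964), for Rnf125 with Msc (0.964) and Dmap1 (0.959), for As3mt with Ucp2 (0.909) and Hdhd2 (0.898), for Enpp2 with Lef1 (0.898) and Kctd12b (0.887), for Ifitm1 with Grhpr and Pdk4 (0.926 each) and for Gm14322 with Mier2 (0.891) and Fam131c (0.852), among 11926 genes. Among the 6 genes, r was 0.872 for Ly6a and Rnf125, 0.743 for Enpp2 and Ifitm1, and -0.739 for Ifitm1 and Gm14322. These are descriptions, and most groups share the ESC source or a time point.

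In the 10x sample, 15315 of 15412 barcodes passed the filters, with a median of 9281 UMIs, and fell into 12 clusters. A UMI of As3mt was found in 11.9% of cells (95% exact binomial interval 11.44% to 12.47%), of Ifitm1 in 10.2% (9.7% to 10.7%), of Gm14322 in 2.5%, of Enpp2 in 1.34%, of Rnf125 in 0.326% and of Ly6a in 0.17% (26 cells). These intervals cover counting error only, and there is 1 sample and no test. With each cell thinned to 2000 UMIs, which left out the shallower cells and kept 11515, the shares were 2.47% for As3mt, 3.47% for Ifitm1 and 0.269% for Enpp2.

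Ifitm1 was unevenly spread over the clusters. It reached 53.7 CPM, here of UMIs (46.2 to 62) in cluster 6, led by Cited1, S100g and Pitx1, and 48.3 (45.5 to 51.2) in cluster 7, led by Rbp4, Srgn and Pitx1, at median depths of 2214 and 22737 UMIs. In the interstitial-like cluster 3 it was at 24.3 (22.3 to 26.4), and in cluster 1, led by Igfbp5 and Upk3b, at 10.6 (9.63 to 11.7). As3mt was at 28.2 (22.8 to 34.3) in cluster 6 and 26.5 (24.5 to 28.7) in cluster 7, against 8.55 (7.39 to 9.83) in cluster 3. In the neuron-like cluster 10 it was at 25.1 (14.3 to 40.7), from 16 UMIs, an interval that overlaps those of cluster 6 and cluster 7, with a thinned share of 6.12% of 49 cells. The thinned shares kept cluster 6 and cluster 7 above cluster 1 and cluster 3 for both genes, at 9.52% and 9.08% against 2.09% and 5.18% for Ifitm1 and at 5.92% and 4.43% against 2.21% and 1.91% for As3mt. In the neuron-like cluster 10, a type not known for Ifitm1, 3.03% of 66 cells had a UMI of it, at a median of 9749 UMIs, against 28.8% in cluster 7. Of the 33 UMIs of Ly6a, 17 were in cluster 5, led by Wfdc2, Stra8 and Cldn3.

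**Figure D5:**
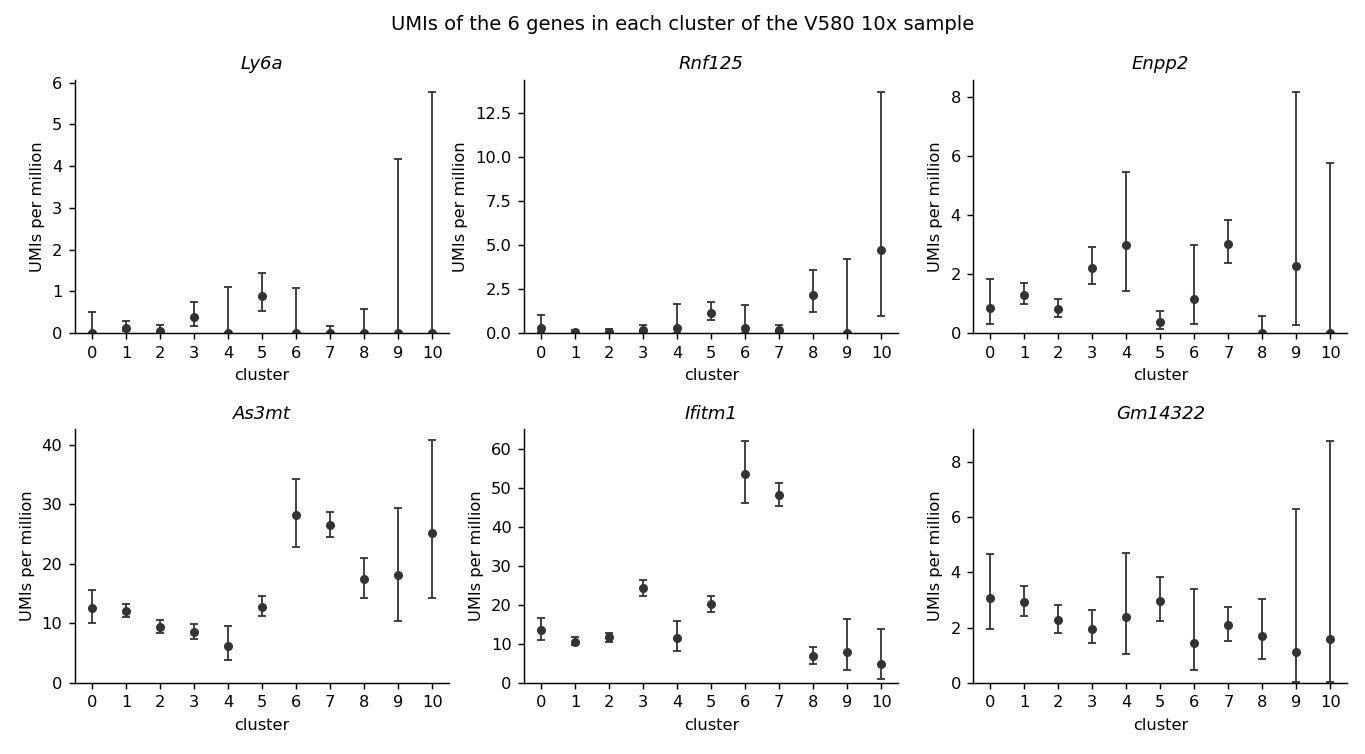
CPM (UMIs scaled to the total of a cluster) of the 6 genes (vertical axes from 0) in the clusters of at least 50 cells of the 10x sample (horizontal axes), where points are sums over the cells of a cluster and bars 95% exact Poisson intervals for counting error. Ifitm1 is highest in cluster 6 at 53.7 and cluster 7 at 48.3, and As3mt is at 28.2 and 26.5 in these clusters, with cluster 10 at 25.1 and its interval overlapping both.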

How the data were processed

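No reads were aligned for this report. The authors deposited FPKM per gene for the treatments, the V580 days and E12.5_GC (the tool behind this unit is not given in the sources used here), counts per gene for the stages, obtained by HISAT2 alignment to mm10 and featureCounts, and UMI counts from Cell Ranger (mm10) for the 10x sample. The submitters' processing notes also list Trim Galore, FastQC, SAMtools and RSEM. Columns named X580 were taken as AM580. A table with 10 columns that matched no single sample was not used here.

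FPKM was tested with limma 3.58.1 (trend, robust) on log2(FPKM + 1) for genes of at least 1 FPKM in at least 2 (treatments) or 3 (days) libraries, with a single model for each experiment. Genes were called where the Benjamini-Hochberg adjusted p was below 0.05 and the change 2-fold or more. Counts were tested with edgeR 4.0.16 (filterByExpr, TMM, quasi-likelihood), where the adjusted p alone made a call, and DESeq2 1.42.0 was an alternative. The interaction contrast and edgeR on fragments recovered from FPKM were added after seeing the data. Adjusted p values are those of limma for FPKM and edgeR for counts. On simulated data limma recovered 100% of 200 changed genes for V580 against AM580 at 24 h (10198 genes) with 0 false calls, and edgeR 82.5% of 194 between E12.5 and E13.5 (15953 genes) with 17 false calls. For limma, only rises past 2-fold were planted, in genes of higher mean and with normally distributed noise, which favours recovery. Smaller changes and changes of low genes were not simulated for limma.

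Barcodes of the 10x sample were kept from 200 genes upwards and up to 40% mitochondrial UMIs and clustered with scanpy 1.11.5 (2000 variable genes, 20 components, 20 neighbours, Leiden resolution 0.5). Doublets were not removed. Gene positions came from GENCODE vM21. The 6 genes and the 13 gene lists were chosen with earlier results of these data known. Other genes were named as up to 3 called genes per list, the 2 most correlated genes per gene, the 3 genes ranked next by Vc against Con, and, after seeing values, single list members, neighbours and Gapdh.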

Additional observations from a re-analysis of the deposited data

Results flagged for a closer look

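By the interaction contrast in limma on log2(FPKM + 1), the difference between V580 and AM580 changed from 24 h to 48 h for 4 of the 6 genes. Of all genes tested, 6.02% passed, and with edgeR on the recovered fragments 1 of the 6 genes did. The change was -1.63 for Ly6a (adjusted p = 8.67e-06), -1.42 for Rnf125 (adjusted p = 5.81e-05), -0.87 for Ifitm1 (adjusted p = 0.00207) and 0.59 for Enpp2 (adjusted p = 0.00981). The change of Ifitm1 passed under both other scales tried, a pseudocount of 0.1 and edgeR on the recovered fragments. Ly6a and Enpp2 stood at 1 to 14 fragments per library at 48 h in these groups, where log2(FPKM + 1) hardly registers a ratio, and their change did not pass with edgeR on the recovered fragments, nor did that of Rnf125. The recovered fragments of Rnf125 were approximate. With a pseudocount of 0.1, Rnf125 (-1.47, adjusted p = 0.0026) and Enpp2 (1.10, adjusted p = 0.00647) passed and Ly6a did not (-1.50, adjusted p = 0.163).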

How the results depend on the processing

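Of 1141 alternatives, 10 changed the sign of a value, all of Ly6a or Gm14322 and none of a value that was called. When 1 library at a time was left out, V580 against AM580 ran from -0.54 to 0.03 for Gm14322 at 24 h (0.03 without the second V580 library) and from -0.03 to 0.21 for Ly6a at 48 h (-0.03 without the second V580 library), and day 10 against day 8 from -0.56 to 0.01 for Gm14322 (0.01 without the second day 8 library and 0.00 without the third day 10 library). With a gene length term, E16.5 against E13.5 went from -0.35 to 0.22 for Ly6a. For Vc against Con at 48 h, Ly6a went from 0.06 to as low as -0.17, within the replicates numbered 2, and Gm14322 from -0.07 to as high as 0.09, without the second Con library. Depth limited Ly6a and Enpp2 at 48 h with AM580, at 1 to 14 fragments per library, and Gm14322 in the stages. The cause of the changes below was not tested, except that dropping or adding a fold threshold changes counts by construction.

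Without a fold threshold, the 6 genes gave 5 calls and all genes 1581 for V580 against AM580 at 24 h, 3 and 2057 at 48 h, 5 and 6993 for AM580 at 48 h against 24 h, 5 and 7109 for V580, 3 and 5155 for day 6 against day 4, and 2 and 3966 for day 10 against day 8. All genes gave 4739 for day 8 against day 6, and 7712 and 7993 for day 6 and day 10 against E12.5_GC. With a pseudocount of 0.1, all genes gave 53 and 82 for V580 against AM580 at 24 h and 48 h, 1394 and 1455 between the times in AM580 (4 of the 6 genes) and V580, and 1054, 599 and 346 between successive days. For Vc against Con at 48 h, 4 of the 6 genes were then past 2-fold. With edgeR on recovered fragments, added after seeing the data, these counts over all genes were 118, 172, 2135 (4 of the 6 genes), 2206, 1579, 960 and 613, with 3296 and 3482 (5 of the 6 genes) against E12.5_GC, and 1 of the 6 genes in the interaction. With at least 2-fold, the stages gave 1 of the 6 genes and 2783 genes from E12.5 to E13.5, 4281 to E16.5, 5340 to P6w and 4915 from E12.5 to P6w. With a gene length term, 2 of the 6 genes were called from E12.5 to E13.5, where all genes gave 7547 calls without the term. The main counts over all genes were 7, 28, 784, 853, 585, 293, 149, 1747 and 1887 in FPKM, in the order above, and 7547, 8870, 9222 and 8676 in the stages.

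Leaving out 1 library at a time gave 1 to 3 of the 6 genes between the times in AM580 and 2 to 4 for Vc against Con at 24 h. Deviations from the group means of libraries with equal replicate numbers correlated above 0.1 in 14 of 56 pairs of the treatments (-0.424 to 0.209), 9 of 30 of the days (-0.431 to 0.386) and 0 of 12 of the stages (-0.0426 to 0.0657), so not every pair of an experiment did, and the numbers were not taken to pair the libraries. The replicate block left the number of the 6 genes called as it was in all 13 tested comparisons, and within the replicates numbered 1 alone, 2 of the 6 genes were past 2-fold for Vc against Con at 24 h.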
